A study of Mus musculus with 135 samples.

Results

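Cardiomyocytes carried 3889 peaks of H3K4me3 (histone H3 trimethylated at lysine 4) that lay away from every annotated gene start and overlapped no peak of the other cell types mapped in the same study. They were chosen by position alone: the peak interval on the reference genome (mm10) shared not 1 base with an interval from male germ cells, embryonic stem cells or hepatocytes, and no transcription start site (TSS) of any gene in GENCODE release M21 lay within 1 kb of it. The 3889 peaks are 16.3% of the 23809 cardiomyocyte peaks, out of 187253 peaks in the lists of all 4 cell types. For comparison, 5959 cardiomyocyte peaks were equally far from a TSS but overlapped a peak of another cell type (shared distal peaks), 13961 lay within 1 kb of a TSS (promoter peaks), and 7910 hepatocyte peaks were distal and found in hepatocytes alone.

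The cells came from hearts of 8-week-old female mice of 4 inbred strains, with 3 H3K4me3 libraries per strain: C57BL/6J (B6), DBA/2J (D2), and BXD75 and BXD87, recombinant inbred lines whose genomes are fixed mosaics of B6 and D2. All 12 libraries were made from chromatin cut with micrococcal nuclease and precipitated with antibody lot 2746331, in a series of 135 samples that set out to map how the parental genomes shape this mark. The labels do not say whether the libraries of a strain came from separate animals, so p-values measure only the spread between these libraries, which may be technical. Each library held between 2618483 (D2 replicate 3) and 12775606 (BXD87 replicate 3) reads in peaks, and D2 was the shallowest strain, with at most 4104501. The median peak of this class held 23 reads in the shallowest library and 154 in the deepest.

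H3K4me3 is written mainly by the SET1 and MLL (COMPASS) methyltransferases and is recognised by TFIID and other factors that start transcription, so it is densest around active promoters. Distal elements usually carry the monomethyl form, and distal sites with the trimethyl form include strong enhancers and unannotated promoters. In the heart, enhancers are bound by MEF2, GATA4, TBX5, NKX2-5, SRF and TEAD1, transcription factors that together drive the genes of contraction and conduction.

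The central 300 bases of 7 peaks are shown (GRCm38, forward strand, 5′ to 3′), with matches to cardiac motifs in capitals. The motifs marked, on either strand, are those of MEF2, SRF (the CArG box), TEAD, GATA, NKX2-5, TBX and ESRR, and none of their letter strings contains another. The first 5 windows are of the highest peak with a match near a gene of each of 5 lists of heart genes.
Ldb3 window, chr14:34563524-34563823: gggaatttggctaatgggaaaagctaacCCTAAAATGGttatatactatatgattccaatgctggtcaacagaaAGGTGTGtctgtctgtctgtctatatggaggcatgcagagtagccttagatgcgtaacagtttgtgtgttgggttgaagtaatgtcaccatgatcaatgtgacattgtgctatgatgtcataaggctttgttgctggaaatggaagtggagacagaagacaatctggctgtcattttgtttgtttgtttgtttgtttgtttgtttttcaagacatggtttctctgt
Hcn4 window, chr9:58844395-58844694: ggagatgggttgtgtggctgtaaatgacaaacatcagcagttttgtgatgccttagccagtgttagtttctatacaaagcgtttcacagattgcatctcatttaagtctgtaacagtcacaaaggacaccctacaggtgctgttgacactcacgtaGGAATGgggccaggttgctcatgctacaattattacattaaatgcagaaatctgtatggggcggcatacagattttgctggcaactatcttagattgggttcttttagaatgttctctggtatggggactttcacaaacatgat
Prdm16 window, chr4:154583272-154583571: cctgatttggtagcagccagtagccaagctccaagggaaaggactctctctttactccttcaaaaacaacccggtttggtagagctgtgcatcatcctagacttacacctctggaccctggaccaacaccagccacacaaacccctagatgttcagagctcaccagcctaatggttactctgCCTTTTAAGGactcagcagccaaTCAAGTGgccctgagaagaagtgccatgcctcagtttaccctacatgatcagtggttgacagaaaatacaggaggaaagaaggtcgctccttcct
Lpl window, chr8:68982172-68982471: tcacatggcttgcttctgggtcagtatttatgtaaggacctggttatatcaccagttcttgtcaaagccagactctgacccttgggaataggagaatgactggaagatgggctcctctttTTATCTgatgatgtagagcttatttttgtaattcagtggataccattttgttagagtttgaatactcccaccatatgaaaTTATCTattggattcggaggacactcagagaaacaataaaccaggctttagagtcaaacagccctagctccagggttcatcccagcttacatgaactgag
Pde3a window, chr6:141307325-141307624: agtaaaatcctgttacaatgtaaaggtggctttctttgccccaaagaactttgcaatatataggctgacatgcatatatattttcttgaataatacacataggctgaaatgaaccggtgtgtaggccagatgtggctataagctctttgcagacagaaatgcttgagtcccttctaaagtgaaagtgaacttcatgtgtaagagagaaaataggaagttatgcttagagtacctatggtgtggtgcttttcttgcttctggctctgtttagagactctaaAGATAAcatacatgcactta
The last 2 windows are of peaks whose level differed both between the founder strains and between the BXD lines.
Cdk14 window, chr5:5109600-5109899: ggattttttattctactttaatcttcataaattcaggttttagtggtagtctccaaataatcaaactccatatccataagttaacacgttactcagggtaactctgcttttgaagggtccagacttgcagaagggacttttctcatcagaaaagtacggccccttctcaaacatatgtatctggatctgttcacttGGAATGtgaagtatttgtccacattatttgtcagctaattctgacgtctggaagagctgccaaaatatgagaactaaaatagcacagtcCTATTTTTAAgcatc
Phip window, chr9:83023099-83023398: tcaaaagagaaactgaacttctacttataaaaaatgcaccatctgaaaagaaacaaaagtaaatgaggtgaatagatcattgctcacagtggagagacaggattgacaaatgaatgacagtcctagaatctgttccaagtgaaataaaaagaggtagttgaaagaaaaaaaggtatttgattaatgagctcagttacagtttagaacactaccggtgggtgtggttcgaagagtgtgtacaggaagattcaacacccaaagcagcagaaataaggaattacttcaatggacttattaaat
The Ldb3 window, in an intron of the gene for a Z-disc protein, holds a CArG box, the site bound by SRF, and a TBX match (searched as AGGTGTG). The Prdm16 window, in an intron of a transcription factor gene, holds a CArG box and a match to NKX2-5, the homeobox factor of early heart cells (TCAAGTG). The Hcn4 window, in an intron of the pacemaker channel gene, holds a match to TEAD, the partner of YAP (GGAATG). The Lpl window holds 2 matches to GATA factors, both on the reverse strand, and the Pde3a window 1 on the forward strand (AGATAA). The Cdk14 window holds a MEF2 and a TEAD match, and the Phip window none of the 7 motifs.

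Most of these peaks lay inside genes. The centre of 2565 (66.0%) was in an intron, that of 1156 (29.7%) between genes, and that of 168 (4.32%) in an exon, against 54.7%, 40.2% and 5.12% of shared distal peaks. The median distance to the nearest protein-coding TSS was 32.5 kb, against 24.8 kb for shared distal peaks. The X chromosome held 29 of them (0.746%), against 1.29% of shared distal and 2.84% of promoter peaks. The median distance to the nearest peak of another cell type was 4.67 kb, and for 1075 peaks it was over 10 kb.

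Peaks were narrow and low beside promoters. Their median length was 2049 bases (523 to 19354), against 2317 for shared distal and 4077 for promoter peaks, and 44 were longer than 10 kb. The median level was 10.1 CPM (read counts scaled to library size, with TMM factors over the reads in all peaks), against 13.1 for shared distal and 46.0 for promoter peaks. Per kb of peak the median was 5.0 CPM, against 5.51 and 10.5. In each library the median log2 CPM per kb was set against that of shared distal peaks: the difference was −0.16 on average (SD 0.14, n = 12 libraries), below 0 in 10 of 12, with a two-sided exact permutation test over the signs of the libraries giving p = 0.00195. The 2 libraries at or above 0 were BXD87 replicates 1 and 3, so the order held in every library of B6, D2 and BXD75.

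Near the limits of the rule, levels per kb did not jump. The 213 peaks with a TSS 1 to 2 kb away had a median of 5.01 CPM per kb. The 208 peaks left out because a TSS lay outside the peak but within 1 kb had 4.98, and the 267 distal peaks left out for an overlap of at most 500 bases had 5.05. Further from the limit, the 475 peaks without an overlap that were left out for a TSS inside the peak had 5.42.

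In the deposited names, 3883 of the 3889 peaks (99.8%) are marked as found on the reference genome alone, 2 as found on both genomes and 4 as found on the second genome alone. Of shared distal peaks 96.2% and of promoter peaks 37.2% are marked as reference-only. The name did not mean that D2 lacked the mark. Of the 3883 reference-only peaks, D2 was within 2-fold of B6 in 3799 (97.8%), as high as B6 or higher in 1467, and without a read in 2. The highest running number of a peak called on the reference genome in the deposited list was 26500, and on the second genome 9524.

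Genes of contraction, rhythm and heart identity took a larger share of these peaks than of the other distal classes. Lists of heart genes were matched to peaks whose nearest protein-coding TSS, within 100 kb, was that of a listed gene. The list of calcium handling and conduction genes was nearest to 68 peaks (1.75%), against 30 shared distal peaks (0.503%) and 17 hepatocyte-only peaks (0.215%). At least 1 peak was found for 24 of its 34 genes, with levels from 3.37 to 50.3 CPM. Cardiac transcription factor genes were nearest to 65 peaks (1.67%, against 0.772% and 0.354%), spread over 24 of 34 genes, and sarcomere genes to 27 peaks (0.694%, against 0.369% and 0.139%), over 12 of 40 genes. The 7 peaks of Myocd, a transcriptional coactivator, are counted in both of these lists. The other 2 lists stood less far from the comparison classes: natriuretic and growth signalling genes had 37 peaks (0.951%, against 0.789% and 0.518%), and fatty acid and energy metabolism genes 9 peaks (0.231%, against 0.201% and 0.139%). These are descriptions of position, and the length of the genes was not taken into account.

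**Figure D1:**
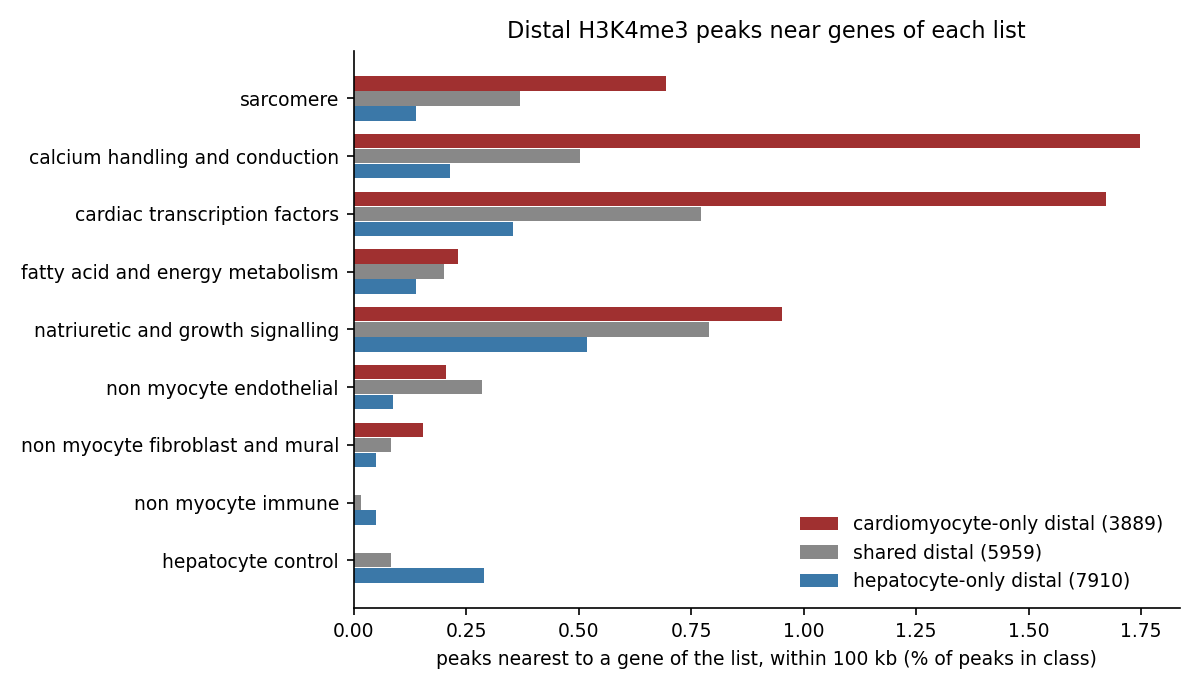
Bars give the share of each class of distal peaks (percent of the peaks in the class) whose nearest protein-coding TSS, within 100 kb, belongs to a gene of the list. Calcium handling and conduction reaches 1.75% and cardiac transcription factors 1.67% of cardiomyocyte-only distal peaks, while the immune and hepatocyte lists have none.

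Markers of other cell types were also checked. Of 14 hepatocyte genes in the annotation and 15 immune genes none had a cardiomyocyte-only distal peak. For hepatocyte genes this follows in part from the rule, which leaves out any peak that overlaps a hepatocyte peak: they had 5 shared distal and 23 hepatocyte-only peaks. Endothelial genes had 8 peaks (0.206%, against 0.285% of shared distal peaks) over 5 of 17 genes, but more than the 0.0885% of hepatocyte-only peaks. Fibroblast and mural genes had 6 (0.154%, against 0.0839% of shared distal and 0.0506% of hepatocyte-only peaks) over 5 of 18. At promoters, 31 of 40 sarcomere and 33 of 34 calcium handling genes had a cardiomyocyte peak, with medians of 109 and 129.5 CPM. Of the hepatocyte genes 1 had a promoter peak, at 11.9 CPM. Endothelial promoters were marked too, with 12 of 17 genes at a median of 121 CPM, as were 14 of 18 fibroblast and mural genes at 37.2 CPM, so the preparation held the mark at genes of other heart cells.

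At the sarcomere genes, the highest peak lay 53.6 kb from the TSS of Fhl2, a LIM-domain protein of the sarcomere, and was 13985 bases long (chr1:43250549-43264534, in an intron of a non-coding gene). It had 60.9, 47.0 and 104 CPM in the B6 libraries, 51.4, 40.8 and 35.5 in D2, 30.9, 103 and 73.7 in BXD75, and 139, 130 and 161 in BXD87. All 3 BXD87 libraries stood above the other 9, and the 3 BXD75 libraries spread over the range of B6 and D2. The 4 strains differed by the edgeR quasi-likelihood test (adjusted p = 0.0167), and neither B6 against D2 (adjusted p = 0.226) nor BXD75 against BXD87 (adjusted p = 0.207) passed. Next came an intronic peak of Actn2, the cross-linker of actin at the Z-disc (chr13:12317772-12326020), at a mean of 50.02 CPM over the 4 strains, followed by a peak beside Myl2, described below, at 47.2 CPM and an intronic peak of Ldb3 (chr14:34559432-34567915) at 47.0 CPM. Ldb3 stayed close between strains, from 39.4 CPM in the lowest library to 62.3 in the highest.

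Among calcium and conduction genes, the highest peak was in an intron of Cacna1c, the pore of the L-type calcium channel (chr6:118818093-118827038, 8945 bases). It had 38.0, 48.9 and 55.9 CPM in B6, 50, 47.0 and 48.4 in D2, 35.4, 48.2 and 51.9 in BXD75, and 52.7, 56.6 and 70.8 in BXD87, and BXD87 lay above D2 and BXD75 without overlap. Hcn4 had an intronic peak at a mean of 47.3 CPM (chr9:58840570-58848519), and Sorbs2, a Z-disc adaptor, a peak centred in an exon at 41.0 CPM (chr8:45645452-45652446). Of the transcription factors, Prdm16 had 2 intronic peaks at 56.0 and 49.6 CPM, and Tbx20, a T-box factor of the developing and adult heart, a peak centred in an exon at 44.2 CPM (chr9:24745364-24753234). The Prdm16 peaks differed little between strains: the higher of them (chr4:154578596-154588247) averaged 57.5 CPM in B6, 53.1 in D2, 53.4 in BXD75 and 60.0 in BXD87 (SD 5.01 to 13.2, n = 3 each).

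Of the metabolic genes, the peak 95.5 kb from Lpl, the lipase that releases fatty acids from triglyceride, was the highest at 80.3 CPM (chr8:68975964-68988678), followed by intronic peaks of the fatty acid transporter gene Cd36 (38.9 CPM) and of Cpt1a, the gate of fatty acid entry into mitochondria (27.2 CPM). The Lpl peak had 35.8, 115 and 85.2 CPM in the BXD75 libraries, a spread wider than the difference between B6 (67.2 ± 18.3 CPM, SD, n = 3) and D2 (54.2 ± 11.6). Of the signalling genes, Fgf13, a regulator of sodium channels, had a peak 14.2 kb away on the X chromosome (38.4 CPM), Pde3a, a phosphodiesterase that limits cyclic AMP, an intronic peak (30.3 CPM), and the insulin receptor gene Insr another (26.3 CPM). Of the genes of other cell types, Erg, a transcription factor of endothelium, had 2 intronic peaks at 44.6 and 24.6 CPM, and of the fibroblast genes Dpt had an intergenic peak 25 kb away at 31.8 CPM and Gsn, a fibroblast-rich actin-severing protein, an intronic peak at 27.1 CPM.

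The peaks gathered at some genes. They had 2361 different nearest genes, of which 1544 had 1 peak, 355 had at least 3 and 25 at least 7, and 14.4% of neighbouring pairs of peaks were under 10 kb apart. Cacna1c had the most, 17 peaks over 301.6 kb, all within the gene, from 6.35 to 50.3 CPM, beside 1 shared distal peak. Nav2 and Trabd2b followed with 12 each, Nfib with 11, and Rora, an orphan nuclear receptor gene, and Ryr2, the calcium release channel of the sarcoplasmic reticulum, with 10 each. Myocd, the cardiac and smooth muscle coactivator of SRF, had 7 peaks over 97.2 kb at 8.30 to 43.4 CPM, and Esrrg, a nuclear receptor of oxidative metabolism, 7 over 374 kb at 3.39 to 16.6 CPM. Named by their number alone, none of the peaks of Cacna1c, Nav2, Trabd2b, Nfib, Rora or Ryr2 was called between B6 and D2 or between the BXD lines. Of all 3889 peaks 3.57% and 0.411% were called (6.51% and 0.529% of all cardiomyocyte peaks), so this few peaks cannot set these genes apart. Over the 4 strains together, 1 peak of Trabd2b, 2 of Rora and 2 of Ryr2 were called.

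The Cacna1c peaks summed to 262 ± 34.7 CPM in B6 (SD, n = 3), 290 ± 33.4 in D2, 254 ± 54.7 in BXD75 and 311 ± 51.2 in BXD87. The ranges of all 4 strains overlapped: B6 spanned 222 to 286, D2 252 to 315, BXD75 194 to 301 and BXD87 276 to 370. Within Ryr2 itself 8 of the 10 peaks summed to 89.6 ± 12.4 CPM in B6, 85.7 ± 13.7 in D2, 85.9 ± 30 in BXD75 and 119 ± 18.9 in BXD87. All 3 BXD87 libraries, at 106 or above, were over the highest of the other 9, which was 103.

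**Figure D2:**
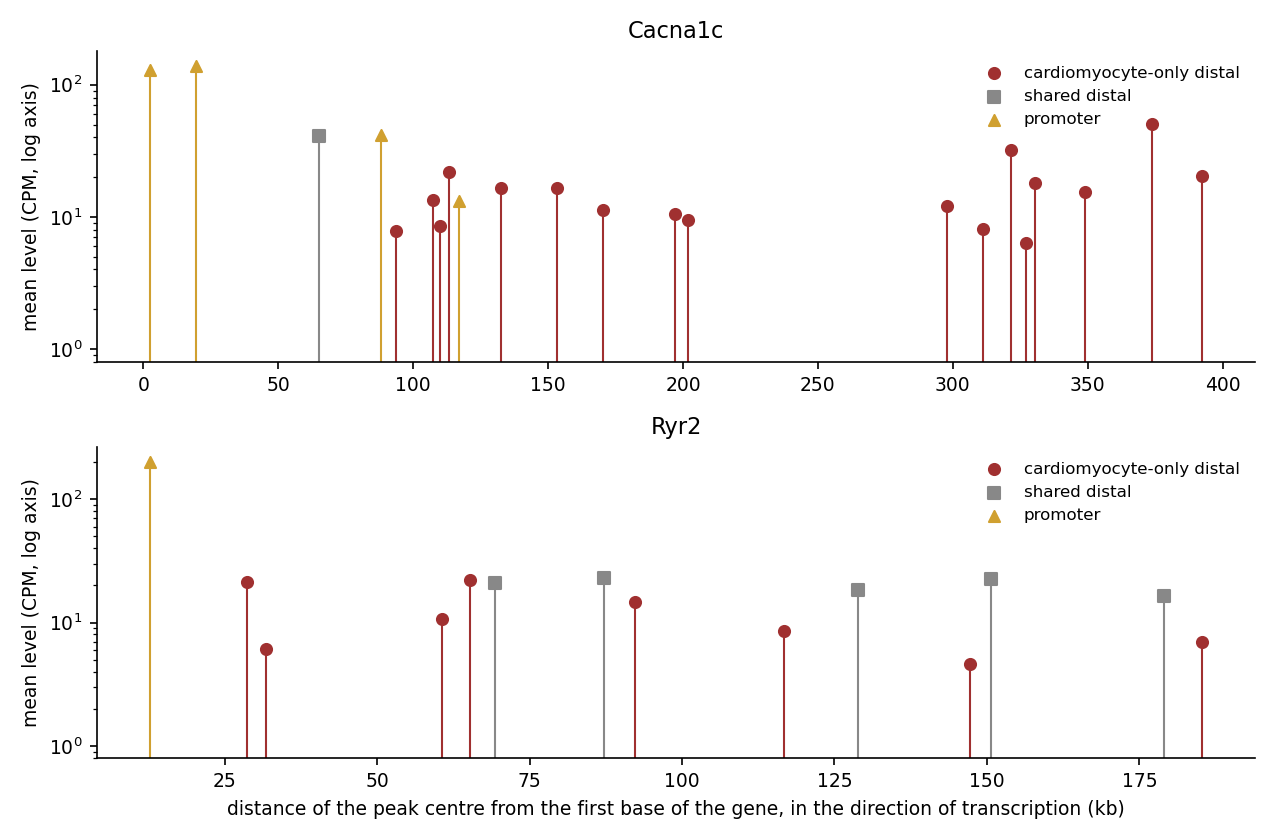
Each stem is a cardiomyocyte peak in Cacna1c (top) or Ryr2 (bottom), placed by the distance of its centre from the first base of the gene along the direction of transcription (kb), with its mean level over the 4 strains (CPM, log axis). In Cacna1c, 17 cardiomyocyte-only distal peaks lie beyond 3 of the 4 promoter peaks and on both sides of the other, and the tallest promoter peak (139.7 CPM) is nearest to another gene, Dcp1b, and in Ryr2, 8 follow 1 promoter peak of 202 CPM.

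Genes near these peaks were mostly marked at their own promoter in cardiomyocytes. Of the 3142 peaks within 100 kb of a protein-coding TSS, 85.6% had a nearest gene with a cardiomyocyte promoter peak. The share was 84.0% of shared distal and 75.8% of hepatocyte-only peaks. These are shares of peaks, in which a gene with several peaks counts more than once. Counted once each, 59.0% of all protein-coding genes had such a promoter peak. A nearest gene with a promoter peak in cardiomyocytes and none in hepatocytes was found for 16.7% of the 3142 peaks, against 11.5% and 5.75% of the other 2 distal classes. Promoter peaks were wider at genes with more of the distal peaks: the median length was 4362 bases over 11165 genes with none, 5551 with 1, 7006 with 2, and 9716 over 222 genes with 3 or more. The median promoter level followed the same order, at 53.7, 63.2, 81.8 and 101 CPM. This level counts reads over the whole peak and so rises with its length. Levels per kb were not compared between these groups of genes.

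The highest peak of all was the longest, in an intron of Col4a2, a basement membrane collagen gene (chr8:11383675-11403029, 19354 bases). It had 113, 142 and 129 CPM in B6, 164, 143 and 150 in D2, 82.8, 130 and 144 in BXD75, and 141, 105 and 157 in BXD87. All 3 D2 libraries were above all 3 B6 libraries, a difference that did not pass the test (adjusted p = 0.403). Ranked by the mean log2 level over strains, others among the 12 highest included an intronic peak of Slco3a1, an organic anion transporter gene (chr7:74371414-74388995, 116 CPM), 2 in introns of Agap1 (95.6 and 81.3 CPM), and 1 in Col4a1 (88.5 CPM). An intergenic peak of 16275 bases 184 kb from Sox6, a gene for a factor of muscle fibre type, had 92.3 CPM (chr7:115461639-115477914). By mean CPM the Fhl2 peak, at 81.5, stands just above the lower Agap1 peak. The 5 widest, from 15067 bases at Mlxip to 19354 at Col4a2, were all among the 12 highest.

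DNA under the peaks was poorer in CG dinucleotides than that of the other cardiomyocyte classes, with a median of 10.1 CG per kb, against 14.5 for shared distal and 26.1 for promoter peaks, and 8.62 for hepatocyte-only peaks. The median GC content was 46.3%, against 47.8%, 49.8% and 42.7%. In the central 300 bases, a MEF2 match was found in 257 peaks (6.61%), against 5.39% of shared distal, 2.91% of promoter and 5.18% of hepatocyte-only peaks. TEAD letters were found in 18.7%, against 17.1%, 14.1% and 15.8%, and NKX2-5 letters in 4.89%, against 4.30%, 3.12% and 4.06%. For these 3 motifs the share of windows was highest in the cardiomyocyte-only distal peaks.

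Over whole peaks the order of MEF2 changed, with 2.06 matches per 10 kb in the cardiomyocyte-only distal peaks and 2.19 in hepatocyte-only peaks, while TEAD (6.54) and NKX2-5 (1.61) were again the highest of the 4 classes.

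GATA and HNF4A letters were more frequent in hepatocyte-only peaks. GATA letters were in 15.7% of the peaks and in 20.2% of hepatocyte-only peaks, and the HNF4A letters (CAAAGTCCA), a site of a liver factor, in 0.411% against 2.06%. TBX letters were in 6.94% (against 6.53%, 6.06% and 5.83% of shared distal, promoter and hepatocyte-only peaks) and the CArG box in 1.77% (against 1.38%, 1.20% and 1.71%), the highest of the 4 classes in the window. Over whole peaks neither was the highest, with TBX at 2.57 matches per 10 kb against 2.61 in shared distal peaks and the CArG box at 0.549 against 0.579 in hepatocyte-only peaks. Letters of ESRR, a family of nuclear receptors (TCAAGGTCA), were in 0.694%, against 0.873% of shared distal, 0.616% of promoter and 1.09% of hepatocyte-only peaks. The CTCF core (CCACNAGGNGGCAG), the site of an insulator protein, was in 1 peak. When the peaks were split by level into 4 groups of like size, the MEF2 share was 5.45%, 7.00%, 8.64% and 5.35% from the lowest to the highest group, with no steady order. At least 1 of 6 cardiac motifs (MEF2, CArG box, TEAD, GATA, NKX2-5, TBX) was found in 44.3% of the peaks, against 40.7% of shared distal and 31.7% of promoter peaks. ESRR, rarer here than in shared distal and hepatocyte-only peaks, was not among the 6. This share was not computed for hepatocyte-only peaks, where GATA letters were more frequent. A match is a string of letters in the window and not evidence of a bound factor.

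**Figure D3:**
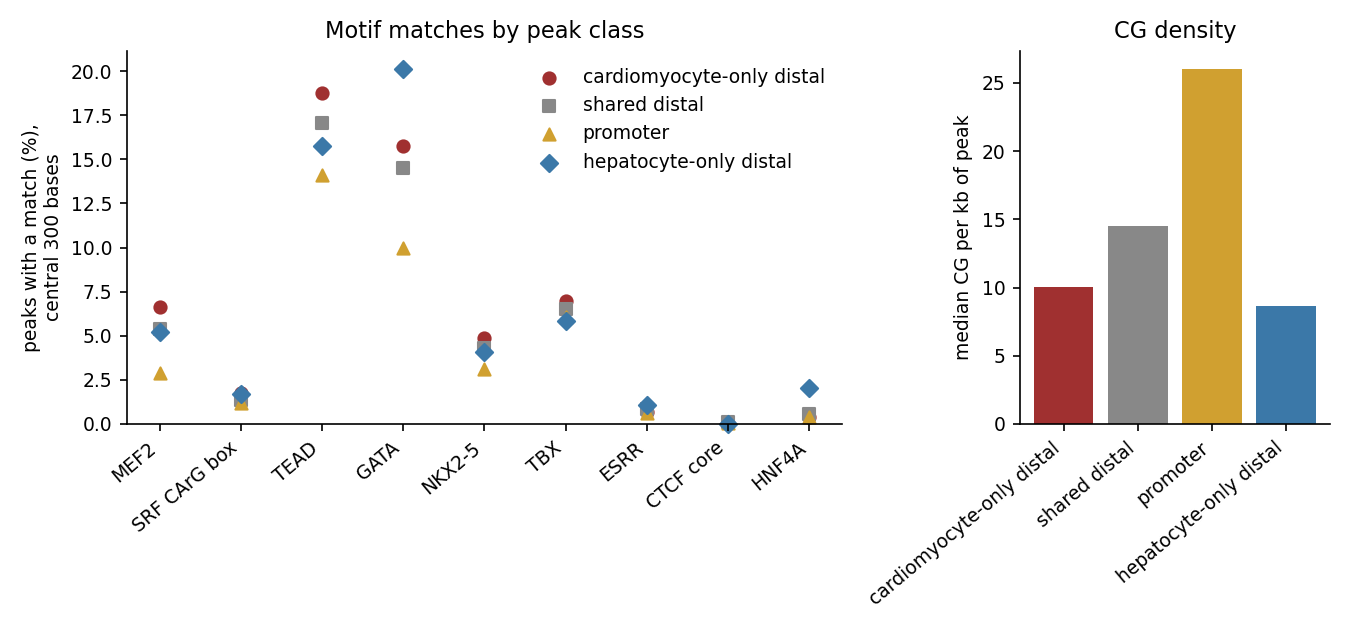
Left, points give the percent of peaks in each class with a motif match in the central 300 bases, and right, bars give the median number of CG dinucleotides per kb of peak. MEF2, TEAD and NKX2-5 are highest in cardiomyocyte-only distal peaks (6.61%, 18.7% and 4.89%), as are TBX and the CArG box by less (6.94% and 1.77%), GATA and HNF4A in hepatocyte-only distal peaks (20.2% and 2.06%), and CG density in promoter peaks (26.1 per kb).

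The share of peak reads that fell in cardiomyocyte-only distal peaks did not differ detectably between strains. It was 5.36%, 5.0% and 6.12% in the B6 libraries, 5.44%, 5.18% and 4.53% in D2, 3.99%, 5.56% and 5.78% in BXD75, and 6.16%, 5.12% and 6.92% in BXD87. BXD75 replicate 1 was the lowest and BXD87 replicate 3 the highest, and all strain ranges overlapped. The exact permutation test over the 4 strains gave p = 0.401 (F ratio 1.14). B6 exceeded D2 by 0.443 percentage points (two-sided exact permutation p = 0.5) and BXD75 minus BXD87 was −0.958 (p = 0.4), where 3 libraries against 3 cannot give less than 0.1. In these bulk samples fewer cells of a type and less of the mark per cell cannot be told apart.

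**Figure D4:**
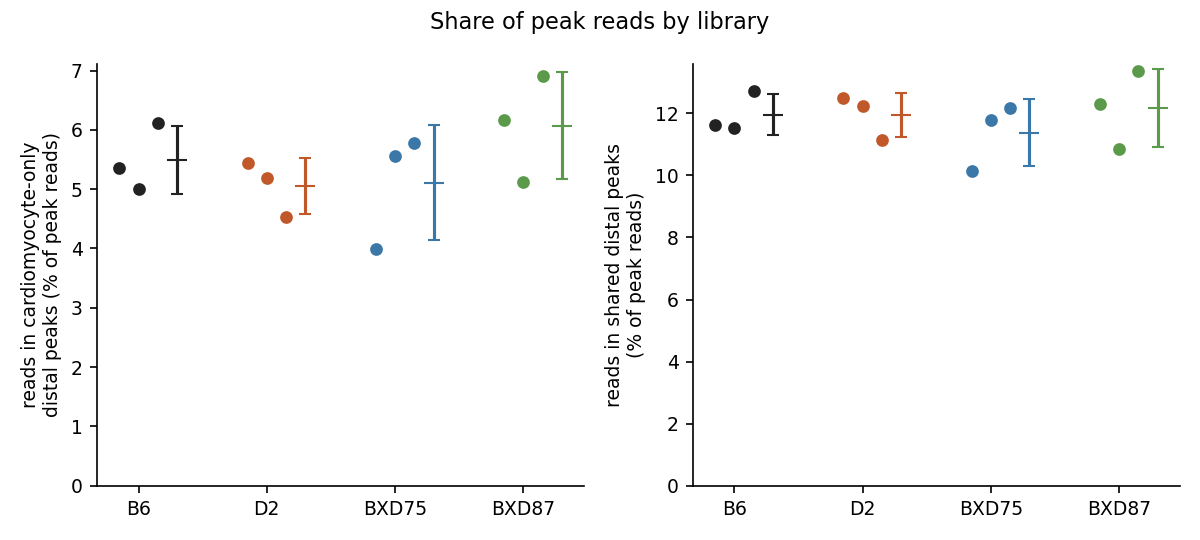
Points are libraries and the bars beside them the strain mean with its SD (n = 3 each), for the percent of peak reads in cardiomyocyte-only distal peaks (left) and in shared distal peaks (right). Strain ranges overlap on the left, from 3.99% in BXD75 replicate 1 to 6.92% in BXD87 replicate 3, and on the right.

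At promoters of sarcomere and calcium handling genes, D2 and BXD87 stood apart from the other strains, while B6 and BXD75 overlapped. Reads in sarcomere promoter peaks were 0.398% to 0.421% of peak reads in B6, 0.291% to 0.305% in D2, 0.356% to 0.399% in BXD75 and 0.448% to 0.491% in BXD87. D2 was thus lowest and BXD87 highest without overlap, as it was for the calcium handling list (0.371% to 0.413% in D2, 0.532% to 0.564% in BXD87). The 15 fibroblast and mural promoter peaks held 0.0812% to 0.0859% in D2 and 0.0601% to 0.0634% in BXD87, the opposite order, and B6 and BXD75 overlapped D2 there. The other lists of non-muscle cells did not share one order: the 12 endothelial promoter peaks held 0.170% to 0.197% in B6, 0.181% to 0.191% in D2, 0.154% to 0.203% in BXD75 and 0.157% to 0.162% in BXD87, and the 4 immune promoter peaks 0.0216% to 0.0240% in D2, below the 0.0264% to 0.0277% of B6. The part of these marker levels in the strain differences of single peaks was not tested.

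Between the founders, 139 of the 3889 peaks were called (edgeR quasi-likelihood test, Benjamini-Hochberg adjusted p under 0.05 over all 23809 cardiomyocyte peaks). That is 3.57%, against 4.03% of shared distal, 8.39% of promoter and 6.51% of all peaks. The mark was higher in B6 at 99 (2.55%, background 4.06%) and higher in D2 at 40 (1.03%, background 2.45%). All 99, and 36 of the 40, are marked as found on the reference genome alone. The part of peak calling on that genome in this split was not tested. The median log2 difference of B6 minus D2 over the peaks was 0.13, against −0.02 over all peaks, and with a library left out it ranged from 0.08 (without B6 replicate 3 or D2 replicate 3) to 0.20 (without D2 replicate 1). Of the 139, 49 differed over 2-fold, 39 of them higher in B6. The count rested on few libraries: it ranged from 23 without D2 replicate 2 to 441 without B6 replicate 2, and was 271 by DESeq2, and 13 of the 139 were called whichever of the 6 founder libraries was left out. Over all cardiomyocyte peaks the count was 502 without D2 replicate 2, 3679 without B6 replicate 2 and 2536 by DESeq2.

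The largest differences in favour of B6 were at 2 peaks without a D2 read. An intergenic peak 48.4 kb from Ero1lb, a gene of oxidative protein folding (chr13:12614309-12615222), had 5.21, 5.84 and 6.29 CPM in B6 and 0 reads in all 3 D2 libraries. Both BXD lines had it, at 4.75 ± 1.31 CPM in BXD75 and 5.32 ± 0.495 in BXD87 (SD, n = 3 each). Counted against a floor of 3 reads over the D2 libraries together, B6 was at least 21.4-fold higher (adjusted p = 3.26e-05, edgeR). The second was in an intron of Pcdh15, a protocadherin gene (chr10:73297745-73298863), with 5.56, 2.92 and 5.32 CPM in B6, no D2 read, and at least 17.0-fold more in B6 (adjusted p = 0.00282). Both remained called under each alternative fit that was run. Like the Cdk14 peak below, both are marked as found on the reference genome alone. The size and p-values of these differences may therefore not be independent of how the peaks were found.

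A peak in an intron of Cdk14, a cyclin-dependent kinase gene (chr5:5107631-5111868), had 21.2, 14.6 and 31.6 CPM in B6 and 3.52, 3.34 and 3.78 in D2, 2.67 higher in B6 on the log2 scale (SE 0.31, adjusted p = 0.000116, edgeR). BXD87 carried it at B6-like levels, 34.1, 29.2 and 36.5 CPM, and BXD75 at 1.79, 0.994 and 1.95. The interval was 4237 bases on the reference genome and 1333 on the second genome, 2904 fewer, the largest such difference among all these peaks. Of the 3889, 11 differed by over 10% in length between the genomes, 10 of them shorter on the second. Of the 11, 3 were called between the founders: Cdk14, Cd96 and Tgtp2, the last longer on the second genome. Of all 3889 peaks 3.57% were called, and of all cardiomyocyte peaks 6.51%. With so few peaks, a link between length and level was not tested. At Cd96, an immune receptor gene, the intronic interval was 157 bases shorter and the level 5.89 ± 0.692 CPM in B6 and 2.26 ± 0.610 in D2. The promoter peak of Cdk14 differed by −0.06 on the log2 scale between the founders (adjusted p = 0.853).

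The largest differences in favour of D2 were at the 4 of the 3889 peaks marked as found on the second genome alone, all named here. Such peaks entered the list through a call on that genome and none on the reference. The size and p-values of their strain differences are therefore not independent of how they were found. In an intron of Mfap1b, a spliceosome gene with a near-identical copy nearby (chr2:121470160-121471889), B6 had 1.06, 0.875 and 0.605 CPM and D2 18.8, 16.7 and 19.7 (log2 −4.41, SE 0.35, adjusted p = 3.08e-06, edgeR). In an intron of Flt4, the receptor of lymphatic growth factor VEGF-C (chr11:49610807-49612848), B6 had 3.08, 1.46 and 2.30 CPM and D2 29.8, 35.8 and 28. At both peaks the BXD lines lay between the founders and nearer to D2: Flt4 had 21 ± 0.699 CPM in BXD75 and 18.7 ± 0.866 in BXD87. A peak at Tgtp2, an interferon-induced GTPase gene also with a near-identical copy, had 1.98 ± 0.713 CPM in B6, 13.4 ± 1.10 in D2, 13.9 ± 4.71 in BXD75 and 16.3 ± 0.453 in BXD87. Reads of such copies could be split between them in counting, so the Mfap1b and Tgtp2 values are uncertain. At Plxnd1, a semaphorin receptor gene, D2 stood alone with 60.1, 55.6 and 49.1 CPM against 10.4 to 26.1 in the other 9 libraries (chr6:115976195-115981003). The promoter peak of Plxnd1 was also higher in D2, by 0.45 on the log2 scale (adjusted p = 0.0381).

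**Figure D5:**
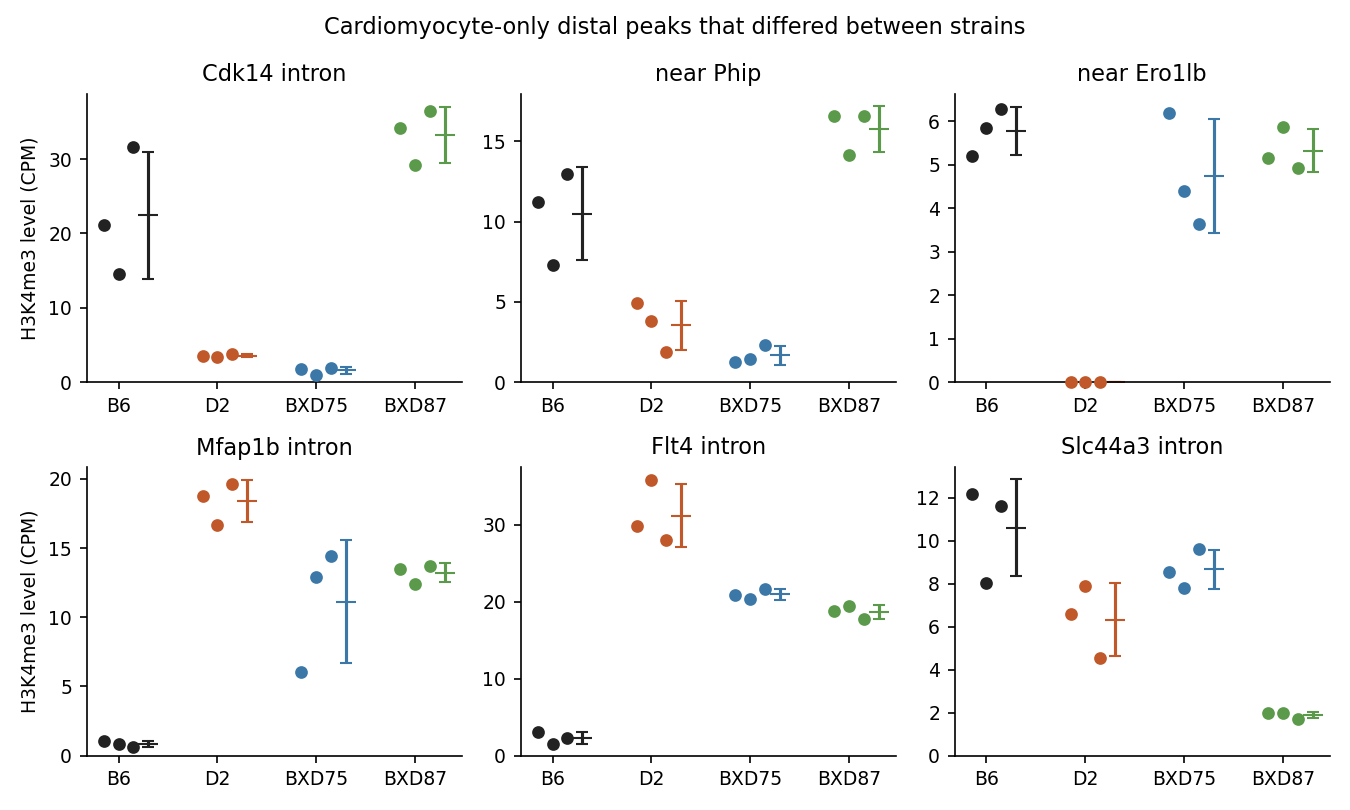
Each panel gives the level of a peak (CPM) in the 3 libraries of each strain, with the strain mean and SD beside them. D2 and BXD75 are low at Cdk14 and near Phip, D2 alone is at 0 near Ero1lb, B6 alone is low at Mfap1b and Flt4, and BXD87 alone is low at Slc44a3.

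At genes of the 5 heart lists, 7 of 199 distinct peaks were called between the founders (3.52%, background 6.51%), close to the 3.57% of all cardiomyocyte-only distal peaks, and all 7 were higher in B6. Of the 8 peaks at endothelial genes 2 were called, both higher in D2. The peaks, named after their values were seen, lay near Myl2 and Ankrd1 of the 27 at sarcomere genes, near Bves, Adra1a and Kcnip2 of the 68 at calcium and conduction genes, near Irx5 of the 65 at transcription factor genes and near Prkag2 of the 37 at signalling genes. The 7648-base peak 1.41 kb from Myl2, the ventricular myosin light chain (chr5:122091890-122099538), had 40.9, 48.4 and 65.5 CPM in B6 and 30.5, 32.5 and 30.6 in D2 (log2 0.72, SE 0.17, adjusted p = 0.0262, edgeR). Kcnip2, a subunit of the transient outward potassium channel, had a peak 37.6 kb away, in an intron of Armh3, with 32.8, 27.9 and 41.9 CPM in B6 and 20.2, 18.9 and 18.9 in D2. These calls rested on few libraries: with each of the 6 founder libraries left out in turn, Ankrd1 was called in 5 fits, Myl2 and Irx5 in 2 each, and Bves, Adra1a, Kcnip2 and Prkag2 in 1 each. At endothelial genes, an intronic peak of Cdh5, the cadherin of endothelial junctions (chr8:104115837-104117853), had 7.34, 12.5 and 8.23 CPM in B6 and 18.5, 17.9 and 16.3 in D2, and an intronic peak of Kdr, the main VEGF receptor, 7.59 ± 1.17 and 13.2 ± 1.57 CPM. The Cdh5 call was kept in 2 of the 6 fits and the Kdr call in 1. At the endothelial promoters, given above, B6 and D2 overlapped. Over all peaks of a list the median log2 of B6 minus D2 was 0.25 for sarcomere, 0.07 for calcium and conduction, 0.24 for transcription factor, 0.30 for metabolic, 0.33 for signalling, −0.15 for endothelial and 0.29 for fibroblast and mural genes. With each founder library left out, the median ranged from −0.01 to 0.18 for calcium and conduction, 0.08 to 0.49 for metabolic and 0.14 to 0.48 for signalling genes, 0.19 to 0.41 for sarcomere, 0.16 to 0.37 for transcription factor, −0.22 to −0.10 for endothelial and 0.17 to 0.51 for fibroblast and mural genes.

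Between BXD75 and BXD87, 16 peaks were called (0.411%, background 0.529%, shared distal peaks 0.806%), 6 higher in BXD75 (background 0.319%) and 10 higher in BXD87 (background 0.21%). The median log2 of BXD75 minus BXD87 over all 3889 was −0.24, against 0.01 over all cardiomyocyte peaks. It was −0.10 without BXD75 replicate 1, −0.12 without BXD87 replicate 3 and −0.36 without BXD87 replicate 2. Over the heart lists it lay between −0.61 for sarcomere genes (−0.77 to −0.35 with a library left out) and −0.44 for calcium and conduction genes (−0.58 to −0.20). Of the 16, 10 were called whichever of the 6 libraries was left out. The count was 51 without BXD75 replicate 2, 10 without BXD87 replicate 3, and 52 by DESeq2. Over all cardiomyocyte peaks it was 504, 47 and 461 in the same order.

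The largest difference was again at Cdk14, with a log2 of −4.38 (SE 0.31, adjusted p = 1.97e-05, edgeR). Next was a peak 46.7 kb from Phip, a gene for a bromodomain protein, in an intron of a non-coding gene (chr9:83022227-83024269): 1.24, 1.42 and 2.34 CPM in BXD75, 16.6, 14.1 and 16.6 in BXD87, 11.2, 7.29 and 12.9 in B6 and 4.93, 3.82 and 1.89 in D2. In favour of BXD75, an intronic peak of Slc44a3, a choline transporter-like gene (chr3:121509125-121511000), had 8.54, 7.81 and 9.62 CPM against 1.99, 1.99 and 1.72 in BXD87. The founders, at 8.02 to 12.2 CPM in B6 and 4.54 to 7.87 in D2, were both above BXD87 there, and B6 against D2 was not called (adjusted p = 0.0802). The same held at an intronic peak of Bend5, where BXD87 had 1.61 ± 0.188 CPM and the other 3 strains had means of 5.31 to 6.29, and at an intergenic peak 208 kb from Lpin1, a phosphatidate phosphatase gene, where BXD87 had 3.6 ± 0.239 CPM and D2 7.90 ± 0.364. A peak 52.0 kb from Syde2 lay in an intron of Wdr63. BXD75 was the low strain there, with 3.03, 1.85 and 4.29 CPM against 5.67 to 12.8 in the other 9 libraries. BXD75 was also the low strain at an intronic peak of Csmd2 (6.98 ± 3.91 CPM, against 14.8 ± 1.23 in D2). Of 14 alternatives, including each library left out, the call between the lines was lost in 1 at Slc44a3 and Lpin1, 2 at Bend5 and Syde2 and 3 at Csmd2.

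Of the peaks called, 6 were called in both comparisons, 4.32% of the founder calls and 37.5% of the BXD calls. The overlap was not counted over all cardiomyocyte peaks, so it cannot be read as a trait of this class. The nearest protein-coding genes of the 6 were Cdk14, Phip, Anks1b, Cdh20, Gm10762 and Slc7a2. The Cdh20 peak was intergenic and 435 kb from the TSS. The Gm10762 peak lay in an intron of Zc3h6, 12.9 kb from the TSS of Gm10762. At the first 5 peaks listed, BXD87 stood on the side of B6 and BXD75 on that of D2. At Slc7a2, a transporter of cationic amino acids (chr8:40904969-40906163), the lines were reversed, with 6.51, 5.4 and 7.02 CPM in B6, 3.76, 3.58 and 2.27 in D2, 6.34, 6.96 and 6.76 in BXD75 and 3.38, 3.32 and 3.45 in BXD87. Both calls at Slc7a2 were lost in 7 of 14 alternatives each. Over all 139 founder calls, BXD75 lay on the B6 side of the midpoint between the founder means (log2 scale) at 116 and BXD87 at 134. Both lines lay on the B6 side at 115 and on the D2 side at 4. These counts were not made for the other cardiomyocyte peaks, so they cannot set this class apart. D2 was also the shallowest strain, and the part of depth in these counts was not tested.

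Among all 4 strains, 627 of the 3889 peaks were called (16.1%, background 22.6%, shared distal peaks 19.1%). BXD87 was the highest strain at 398 of the 627 (63.5%) and D2 the lowest at 405 (64.6%). At shared distal peaks the order was another, with D2 the highest at 54.4% and BXD87 the lowest at 56.8% of 1140 calls. BXD87 was also the deepest strain and D2 the shallowest, and BXD87 had the highest share of reads in sarcomere promoters. The part of depth and of these marker levels in that order was not tested. When all libraries were thinned to the depth of the shallowest, 480 peaks were called.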

How the data were processed

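The 12 cardiomyocyte H3K4me3 libraries were used, and the input libraries were not analysed here. The authors deposited raw counts, whole-number reads per peak with a column for each library, and lists of peak positions (unit: other, base coordinates) on mm10 and on another genome, whose build the sources used here do not name. The submitters' processing notes list CASAVA 1.8, BWA 0.5.10, MACS 1.4.2 and mm10, with neither role nor order. The genome each strain was mapped to and the filters on reads before counting are not given in the sources used here, and both could change a strain difference where the genomes differ. Deposited intervals do not state whether they start from 0 or 1, so coordinates are as listed and windows may be off by 1 base.

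Overlaps and TSS distances were computed from these lists and GENCODE M21 (checked with bedtools 2.31.1), and windows of 300 bases were read from GRCm38 with pysam 0.24.0. Differences were tested in R 4.3.3 with edgeR 4.0.16 on all 4 strains at once (filterByExpr, which all 23809 peaks passed, TMM, robust glmQLFit, quasi-likelihood F tests), with Benjamini-Hochberg adjustment over all peaks and calls under 0.05. Log2 levels per library have a pseudocount of 0.1 CPM. Peaks are named by the nearest protein-coding TSS. Named peaks are the 12 highest, up to 6 per direction and comparison with the largest change among called peaks with groups that do not overlap and at least 2 CPM in the higher group, up to 3 of the highest per gene list, up to 6 called in both comparisons, and the 5 widest. The fit was tested on simulated data. Alternatives were other normalisations and filters, DESeq2 1.42.0, thinned counts, a replicate block, each library left out, and other limits of the membership rule. The peaks, gene lists and rules were chosen with earlier results of these data known.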

Additional observations from a re-analysis of the deposited data

How the results depend on the processing

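The number of called peaks depended on the fit far more than the direction did. Between the founders, 139 calls became 395 (317 higher in B6) when only those 2 strains were fitted and 271 (213 higher) with DESeq2, and ranged from 23 to 441 when each library was left out. Calls over all cardiomyocyte peaks moved too, from 1551 to 3347 and 2536 in the same order, and from 502 to 3679 with libraries left out. Between the BXD lines, 16 calls became 8 with only those 2 lines fitted, 52 with DESeq2 and 7, all higher in BXD87, after thinning to the shallowest library, and ranged from 10 to 51 with libraries left out. Over all cardiomyocyte peaks 126 calls became 27, 461 and 54 in the same order, and ranged from 47 to 504 with libraries left out. Over the 4 strains, 627 calls ranged from 116 to 1184. The cause was not tested. Numbered replicates were not taken as pairs, because the deviations of same-numbered libraries correlated above 0.1 across peaks in 8 of 18 pairs (r from −0.74 to 0.66). With the number as a replicate block the counts were 63 between the founders (831 over all cardiomyocyte peaks), 13 between the lines (72) and 333 over the 4 strains. The F ratio of the read share ranged from 0.424 to 2.29 with libraries left out, and its p stayed above 0.05 in every setting. The level per kb stayed below that of shared distal peaks in all 3 alternatives. The rule gave 3107 peaks with no TSS within 5 kb, 3325 with no other peak within 1 kb and 4159 with basic transcripts only.

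Of 29 named differences, 11 were called in all 14 alternatives, 71 of 406 refits lost the call and none changed sign. The peak near Phip lost the founder call in 4 (highest adjusted p 0.0736), those near Slc7a2 in 7 for each comparison, Gm10762 in 9 and Anks1b and Selenon in 5 for the founders, and Meox1 in 6 and Saraf in 7 for the lines. Thinning, which leaves about 23 reads in the median peak, lost 14 of the 29.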

Other observations

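Several genes with many of the peaks lie outside the lists of heart genes. Eepd1 had 9 peaks at 7.64 to 76.2 CPM. Prkce and Prkch, kinases of the protein kinase C family, had 8 each, at 3.56 to 36.4 and 4.71 to 54.6 CPM. Rbfox1, a splicing factor of muscle and brain, had 8 at 4.73 to 28 CPM, and Dysf, a membrane repair protein of muscle, 7 at 4.74 to 24.5 CPM. Of these 5 genes only Prkch had a peak called between the founders, and none had one called between the BXD lines. Of all 3889 peaks 3.57% and 0.411% were called in these comparisons, and of all cardiomyocyte peaks 6.51% and 0.529%.

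Other peaks also differed between strains. Stum, Selenon and Ext1 were the nearest genes of 3 founder calls. The peak 64.3 kb from Stum, in an intron of Itpkb, had 9.31 ± 2.27 CPM in B6 and 21.5 ± 0.759 in D2 (SD, n = 3 each). The intronic peak of Selenon, a selenoprotein of muscle, had 5.28 ± 1.69 and 12.7 ± 2.70, a call lost in 5 of 14 alternatives (highest adjusted p 0.118). The promoter peak of Selenon was also higher in D2, by 0.79 on the log2 scale (edgeR adjusted p = 0.0252). The peak 121 kb from Ext1, an enzyme of heparan sulfate synthesis, lay in an intron of Samd12. It had 10.2 ± 2.45 CPM in B6 and 3.70 ± 0.566 in D2. An intergenic peak 49.8 kb from Meox1, a homeobox gene, was 31.4 ± 4.45 CPM in BXD75 and 14.0 ± 2.28 in BXD87 (adjusted p = 0.0139), with B6 at 32.7 ± 1.97 and D2 at 21.5 ± 6.06. That call was lost in 6 of 14 alternatives (highest adjusted p 0.118), among them without BXD75 replicate 3 (0.0666), BXD87 replicate 2 (0.067) and BXD87 replicate 3 (0.0875).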
